A study of Mus musculus with 24 samples.

Results

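Interferon response genes are genes that cells switch on when type I or type II interferon binds its receptor. The 33 genes described here were chosen by name as known interferon targets, out of 52352 annotated genes, and the rule used no measured value. They were followed in frontal cortex of 24 mice by bulk RNA sequencing of poly-A RNA. Progranulin heterozygotes were crossed to a line with a transgene for human TDP-43, and the littermates fell into 4 genotypes. Mice with both changes are written Grn+/-:hTDP+ and those lacking only a Grn copy Grn+/-:hTDP-. Transgenic mice with intact Grn are Grn+/+:hTDP+, and the controls are Grn+/+:hTDP-. Each genotype had 6 mice, 3 females and 3 males, aged 9.44 to 10.07 months in Grn+/-:hTDP+, 8.19 to 10.79 months in Grn+/-:hTDP-, 9.44 to 10.07 months in Grn+/+:hTDP+ and 9.44 to 10.79 months in Grn+/+:hTDP- mice. Progranulin is a secreted and lysosomal glycoprotein, TDP-43 is an RNA-binding protein, and the series title asks whether shortage of the first and excess of the second interact. The promoter that drives the transgene is not given in the sources used here.

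Type I interferons and interferon gamma act through surface receptors and Janus kinases that phosphorylate STAT proteins. STAT2 and IRF9 belong to the complex that binds the interferon-stimulated response element (ISRE) in target promoters, and the gamma-activated site (GAS) is the element of the interferon gamma response. The targets include sensors of viral RNA, factors that block viral entry and translation, the ubiquitin-like protein ISG15 with the enzymes around it, and the machinery that shows peptides on class I molecules. In brain, microglia and endothelial cells are well-known responders, and a low tonic level of this programme is present without infection.

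Libraries held 61445842 to 100859149 estimated reads, and all 33 genes passed edgeR's default filter on low counts. The labels held: human TARDBP had 4328 to 8162 reads in hTDP+ libraries and 0 to 2 reads in hTDP- libraries, and Grn, in CPM (counts scaled to library size), lay between 13.8 and 32.9 in Grn+/- animals, against 34.7 to 60.5 CPM for Grn+/+ animals. Replicate 2 of the Grn+/+:hTDP+ group stood apart, with 17669 genes above 0 against 22269 to 23272 in the other 23 libraries. In that library Oas1a had 0 reads, and 7 of the 33 genes had their lowest value of all 24 libraries there. Counts of members at an unadjusted p under 0.05, and changes of members named for a comparison, are given also without it where they moved by over 1.5 times, or to or from 0. In bulk tissue, fewer cells of a type and less RNA per cell cannot be told apart. The library protocol describes both strand-keeping and strand-free steps, so reads of overlapping genes on opposite strands cannot be separated with certainty. That applies, among others, to B2m inside Patl2, Dtx3l with Parp9 (682 bases shared), Tap1 with Psmb9 (212 bases) and Rtp4 with Masp1 (525 bases). Rtp4 also shares 39791 bases of its annotated span with Gm45338 on the same strand. Ifit3 and Ifit3b, Oas1a and Oas1g, and H2-K1 and H2-D1 with the H2-Q genes are close copies whose reads the quantification may have split.

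Promoters of 4 members are shown because they carry the response element through which interferon acts. They are those with the most cores of that element and, among equals, the highest level. They are RefSeq sequences on GRCm38.p6, from 250 bases before the annotated start to 50 after it, written 5′ to 3′ along the gene's strand, with the ISRE core in capitals. The core searched for was GAAA, any 2 bases and GAAA again, on either strand. Isg15 lies on the minus strand at chr4:156200769-156201068, Ifit3 on the plus strand at chr19:34583279-34583578, Bst2 on the minus strand at chr8:71537423-71537722 and Ifitm3 on the minus strand at chr7:141010695-141010994.
Isg15: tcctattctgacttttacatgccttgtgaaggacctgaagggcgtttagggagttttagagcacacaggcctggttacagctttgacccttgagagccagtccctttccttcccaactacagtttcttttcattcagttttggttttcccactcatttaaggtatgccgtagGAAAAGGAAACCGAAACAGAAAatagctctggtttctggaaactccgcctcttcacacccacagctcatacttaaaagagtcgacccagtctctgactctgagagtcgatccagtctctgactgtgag
Ifit3: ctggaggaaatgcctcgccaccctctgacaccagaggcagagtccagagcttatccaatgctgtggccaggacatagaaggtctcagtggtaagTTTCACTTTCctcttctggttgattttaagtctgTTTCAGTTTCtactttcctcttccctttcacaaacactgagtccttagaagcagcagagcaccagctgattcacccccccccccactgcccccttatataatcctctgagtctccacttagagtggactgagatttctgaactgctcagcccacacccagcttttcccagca
Bst2: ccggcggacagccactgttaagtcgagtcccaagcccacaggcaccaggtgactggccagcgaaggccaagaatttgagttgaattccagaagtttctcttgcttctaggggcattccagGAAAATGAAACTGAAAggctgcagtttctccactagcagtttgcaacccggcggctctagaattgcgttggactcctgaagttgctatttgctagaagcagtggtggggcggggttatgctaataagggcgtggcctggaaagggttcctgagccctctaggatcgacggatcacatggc
Ifitm3: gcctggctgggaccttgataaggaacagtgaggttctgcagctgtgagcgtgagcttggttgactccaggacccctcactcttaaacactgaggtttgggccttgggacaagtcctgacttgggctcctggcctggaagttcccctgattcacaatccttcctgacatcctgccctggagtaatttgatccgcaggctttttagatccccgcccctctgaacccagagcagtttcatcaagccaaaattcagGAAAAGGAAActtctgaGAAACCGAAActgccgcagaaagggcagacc

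Isg15 held 3 overlapping cores within 78 to 57 bases before its start, Bst2 held 2 overlapping cores 130 to 115 bases before its start, and Ifit3 held 2 separate cores, on the opposite strand, between 156 and 113 bases before it. In Ifitm3 both cores lay just after the start. RefSeq promoters were matched for 27 of the 33 members, and 12 of those 27 held at least 1 ISRE core, against 3.99% of 27025 genes with a promoter entry. The GAS letters TTCNNNGAA were found in 6 of the 27, against 9.55% of those genes. The motifs were searched on both strands and can overlap each other. A match describes letters in this window and is no measure of binding.

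Across the 24 cortices B2m and Ifi27 were the most abundant members, and Ifi44 and Oas2 the least. Levels between genes are given in TPM (a share of transcripts, corrected for length). B2m, the light chain of class I molecules (chromosome 2, 122147686 to 122153083), averaged 173 ± 12.5 TPM in Grn+/-:hTDP+, 182 ± 33.3 in Grn+/-:hTDP-, 181 ± 15.3 in Grn+/+:hTDP+ and 180 ± 33.9 TPM in Grn+/+:hTDP- mice (SD, n = 6 each). Ifi27, a mitochondrial interferon target (chromosome 12, 103434211 to 103440239), averaged 68.7 ± 7.72, 68.9 ± 9.20, 72.8 ± 8.98 and 68.4 ± 4.36 TPM in the same order of genotypes. For both genes the genotype means lay within the spread between mice. Over all 24 mice the heavy chain genes came next, H2-D1 at 39.2 ± 6.50 and H2-K1 at 37.8 ± 8.76 TPM (SD, n = 24), which do not differ beyond their spread. Ifitm3, which blocks entry of enveloped viruses, stood at 26.2 ± 5.53 TPM. Stat2 (11.8 ± 2.34 TPM) and Lgals3bp, a secreted glycoprotein gene (10.6 ± 2.08 TPM), overlapped each other. Irf1, an early interferon-induced transcription factor, had 6.46 ± 0.847 TPM and Isg15 had 3.98 ± 1.46 TPM. The RNA sensors Ddx58, which encodes RIG-I, and Ifih1, which encodes MDA5, stood at 2.12 ± 0.470 and 1.96 ± 0.433 TPM. Lowest were Oas1a (0.480 ± 0.249 TPM), Ifi44 (0.268 ± 0.164 TPM) and Oas2 (0.188 ± 0.0669 TPM). In CPM the 33 genes ranged from 0.353 to 54.7, and 6 of them averaged under 1 CPM.

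**Figure D1:**
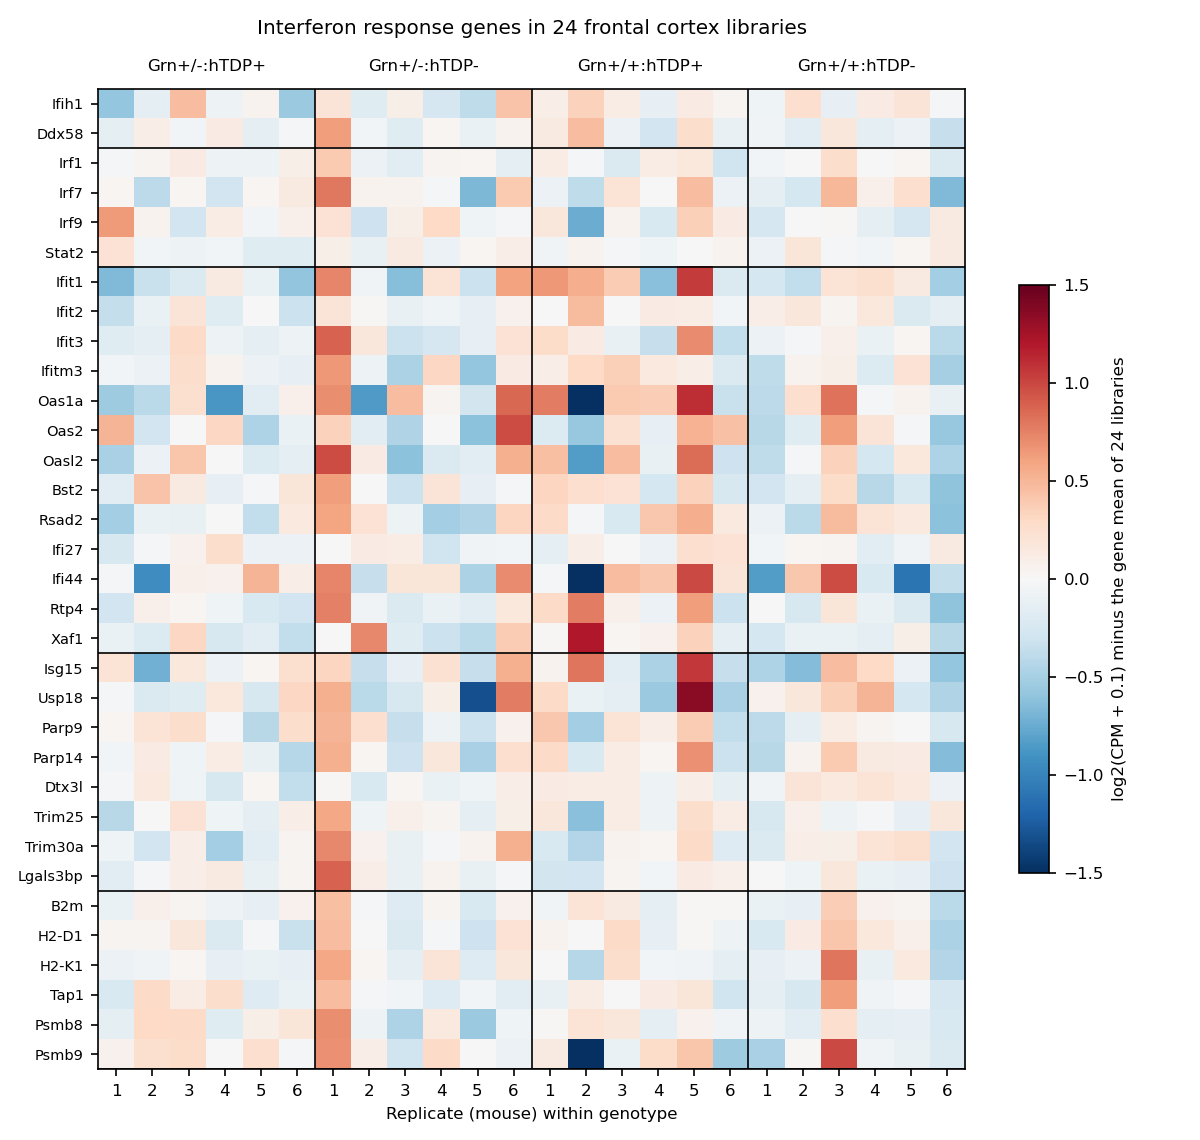
Each row is 1 of the 33 genes and each column 1 mouse, in 4 genotype blocks of 6. Colour is log2(CPM + 0.1) minus the gene's mean over the 24 libraries, cut at 1.5 either way, and lines separate the role groups (RNA sensors, transcription factors, antiviral effectors, ISG15 and regulators, class I presentation). Columns of red run through most rows in replicate 1 of Grn+/-:hTDP-, replicate 5 of Grn+/+:hTDP+ and replicate 3 of Grn+/+:hTDP- mice.

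Single mice, rather than whole genotypes, carried the highest values. Replicate 1 of the Grn+/-:hTDP- group, a female, had the highest value of all 24 mice in 15 of the 33 genes and was above the gene's mean in all 33. Replicate 5 of the Grn+/+:hTDP+ group, a male, was highest in 6 genes and above the mean in 32. Replicate 3 of the Grn+/+:hTDP- group, a female, was highest in 3 and above the mean in 29. Replicate 6 of the Grn+/-:hTDP- group, a female, was highest in 1, among the 3 highest in 8 and above the mean in 25. At the other end, replicate 6 of the Grn+/+:hTDP- group, a male, was lowest of all 24 in 11 genes. The high mice differ in genotype, so 3 of the 4 genotypes held at least 1 mouse with raised values across the list. In Grn+/-:hTDP+ mice replicate 3 came closest, above the mean in 25 genes and among the 3 highest in 5.

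The mean over the 33 genes of the log2 level, centred on each gene's mean, makes that visible as a description. It averaged −0.05 in Grn+/-:hTDP+ mice, with a lowest of −0.12 and a highest of 0.11. In Grn+/-:hTDP- mice it averaged 0.05, from −0.30 to 0.55. In Grn+/+:hTDP+ mice it averaged 0.04, from −0.27 to 0.46, and in Grn+/+:hTDP- mice −0.05, from −0.34 to 0.33. The −0.27 belonged to replicate 2 of Grn+/+:hTDP+ mice, the library with few genes above 0, whose median over the members was 0.01. The next lowest of that group was −0.13, in replicate 6. Replicate 2 is included in the group's average and SD. The 4 genotypes overlapped throughout, and the SD was 0.08 in Grn+/-:hTDP+ mice against 0.31, 0.25 and 0.23 in the other genotypes, a difference that was not tested. The high mice differed in which roles were high. In replicate 3 of Grn+/+:hTDP- mice the 6 class I genes averaged 0.59 above their means and the 2 RNA sensors 0.02, whereas in replicate 5 of Grn+/+:hTDP+ mice the 13 antiviral effectors averaged 0.65 and the class I genes 0.12. In replicate 1 of Grn+/-:hTDP- mice all 5 role groups were high, from 0.38 to 0.61.

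Markers of other cells were compared beside these values. The 10 microglia markers summed to 481.7 CPM in replicate 1 of Grn+/-:hTDP- mice, the highest of all, against 305.9 to 445.1 CPM in the other 23 libraries. They summed to 386 CPM in replicate 5 of Grn+/+:hTDP+ and to 398 CPM in replicate 3 of Grn+/+:hTDP- mice, inside that range. Their part in the result was not tested. The 8 T and NK cell markers together reached 0.615 to 1.34 CPM. Of these, Cd3e was at or near 0 in every library (0 to 11 reads), and 1 marker passed the filter on low counts. The 8 endothelial markers summed to 157 to 205 CPM. The 6 oligodendrocyte markers summed to 1047 to 2722 CPM in Grn+/-:hTDP+, 1132 to 4811 in Grn+/-:hTDP-, 1697 to 3593 in Grn+/+:hTDP+ and 1038 to 2593 CPM in Grn+/+:hTDP- mice. The 7 blood cell markers summed to 13.7 to 78.5, 11.4 to 150.6, 18.3 to 54.8 and 11.2 to 31.1 CPM in the same order.

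The spread between mice of 1 genotype was also measured for each gene. The biological coefficient of variation, the relative spread between mice beyond counting noise, had a median of 0.198 over the 33 genes and 0.114 over all 18239 genes tested. Spread depends on level. Among genes averaging 1 to 10 CPM it was 0.202 for the 20 members and 0.167 for all 4403 genes. Stat2 had the smallest value (0.0775), followed by Ifi27 (0.103), and Oas1a (0.610) and Ifi44 (0.577) had the largest. Those 2 genes averaged only 0.419 and 0.353 CPM. Their lowest values, 0 and 0.031 CPM, came from replicate 2 of Grn+/+:hTDP+ mice, the library with few genes above 0. Their spread without that library is not given here.

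No member was called in any comparison of genotypes or sexes. Genes were called at a Benjamini-Hochberg adjusted p under 0.05 over all genes tested. In each of the 9 comparisons below, edgeR's quasi-likelihood test, DESeq2 and limma voom all called 0 of the 33, and the counts at an unadjusted p under 0.05 are given with each. The comparisons share groups of mice, so their values are set side by side and are not independent.

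The transgene in Grn+/+ mice was set first, since it asks what human TDP-43 does to these genes when progranulin is intact. Of the 33 genes, 26 had a higher level in hTDP+ than in hTDP- mice, with a median log2 change of 0.13 against 0.0006 for all genes. edgeR called 0, where 0.0329% of all genes were called. At an unadjusted p under 0.05 it gave 3 members, all higher, against 7.83% of all genes, so the members' share is close to the background. The 13 antiviral effectors were all above 0 (median 0.29), while the 6 class I genes were split with 3 above and 3 below 0 (median 0.002).

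Xaf1, which encodes a pro-apoptotic partner of XIAP, ranged from 2.03 to 5.32 CPM (median 2.33) in Grn+/+:hTDP+ mice and from 1.66 to 2.41 CPM (median 2.06) in Grn+/+:hTDP- mice. The groups overlapped, and 1 transgenic mouse, replicate 2, lay far above the rest. Its log2 change was 0.50 (SE 0.209, edgeR unadjusted p = 0.0261, adjusted p = 0.608), and 0.25 without that mouse, the library with few genes above 0. Rtp4, a Golgi chaperone gene induced by interferon, ranged from 0.975 to 2.19 CPM (median 1.43) with the transgene and from 0.786 to 1.43 CPM (median 1.11) without it, also overlapping (0.45, SE 0.202, edgeR adjusted p = 0.617). Ifit1, whose protein binds viral RNA that lacks host cap marks, ranged from 1.02 to 3.47 CPM (median 2.27) with the transgene and from 1.11 to 1.93 CPM (median 1.56) without it (0.53, SE 0.253, edgeR adjusted p = 0.636). Both the lowest and the highest of those 12 mice were transgenic. Bst2, which encodes the virion tether tetherin, had 1.94 to 3.002 CPM (median 2.77) against 1.51 to 2.85 CPM (median 1.94), with a log2 change of 0.35 (SE 0.172, edgeR adjusted p = 0.639). Without replicate 2 of the Grn+/+:hTDP+ group the 3 members at an unadjusted p under 0.05 became 0, with 25 of 33 above 0 and 4.95% of all genes under 0.05. Without replicate 5 of that group they also became 0, with 18 of 33 above 0, a median of 0.02 and Ifit1 at 0.29.

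**Figure D2:**
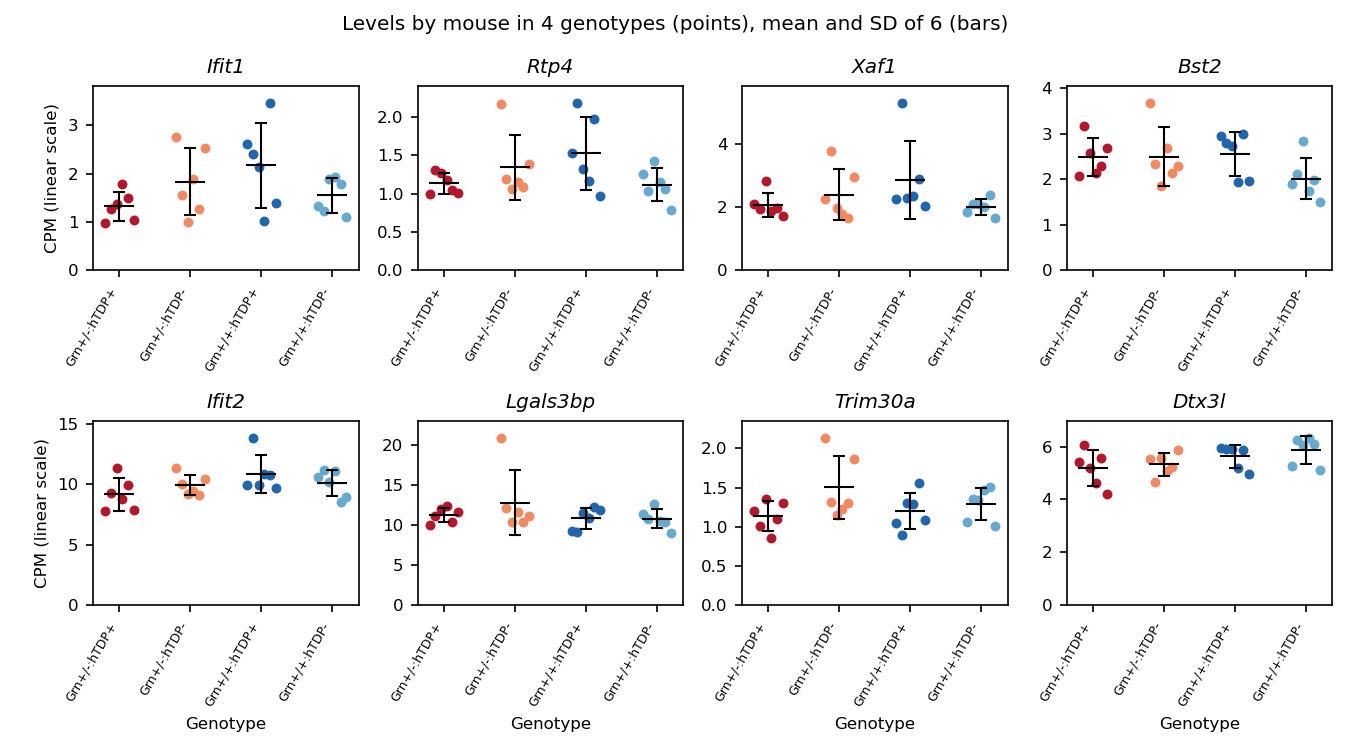
CPM on a linear axis from 0 for 8 named genes; each point is 1 mouse and each bar the mean with its SD over 6 mice, with genotypes on the horizontal axis. In every panel the 4 genotypes overlap, and single mice such as the 20.9 CPM of Lgals3bp in Grn+/-:hTDP- or the 5.32 CPM of Xaf1 in Grn+/+:hTDP+ lie far from the rest of their group.

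The same comparison in Grn+/- mice leaned the other way. Only 6 of 33 members were higher in hTDP+ than in hTDP- mice, with a median log2 change of −0.10 against −0.0001 for all genes. edgeR called 0 members where 0.0219% of all genes were called, and gave 1 member, lower, at an unadjusted p under 0.05 where 2.38% of all genes passed. That gene was Trim30a, which encodes a ubiquitin ligase that restrains innate signalling in mouse. It ranged from 0.854 to 1.35 CPM (median 1.15) in Grn+/-:hTDP+ mice and from 1.16 to 2.14 CPM (median 1.32) in Grn+/-:hTDP- mice. The ranges overlapped in part, and the log2 change was −0.39 (SE 0.174, edgeR adjusted p = 1). Ifit1 had 0.990 to 1.79 CPM (median 1.32) with the transgene and 1.01 to 2.76 CPM (median 1.73) without it (−0.44, SE 0.254, edgeR adjusted p = 1). H2-K1 had 20.8 to 23.1 CPM (median 21.2) against 19.9 to 34.0 CPM (median 24.4). Its log2 change was −0.20 (SE 0.148). Lgals3bp had 10.1 to 12.3 CPM (median 11.4) against 10.4 to 20.9 CPM (median 11.4). For these 2 genes the transgenic mice lay almost wholly inside the range of the others, whose highest mouse was replicate 1 in both. Without that mouse, 14 of 33 members were above 0 and the median was −0.02. With age as a factor in the fit 16 of 33 were above 0, Ifit1 stood at 0.021, Lgals3bp at 0.072 and Trim30a at −0.13. Ages of 8.19, 9.14 and 10.56 months occurred only in replicates 1, 4, 5 and 6 of Grn+/-:hTDP- mice. Those mice add no contrast between genotypes to that fit, which compares this group through replicates 2 and 3 only. Replicate 1, the high mouse left out above, is among those that add none. The same limit holds for every comparison with age as a factor that uses this group.

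Loss of a Grn copy was compared on each transgene background. In hTDP- mice 26 of 33 members were higher in Grn+/- than in Grn+/+ mice, with a median log2 change of 0.14 against 0.009 for all genes. edgeR called 0 members where 0.011% of all genes were called, and gave 0 members at an unadjusted p under 0.05 where 3.41% of all genes passed. Lgals3bp ranged from 10.4 to 20.9 CPM (median 11.4) in Grn+/-:hTDP- mice and from 9.06 to 12.6 CPM (median 10.6) in Grn+/+:hTDP- mice. Apart from 1 mouse at 20.9 CPM the groups lay together (0.24, SE 0.128, edgeR adjusted p = 1). Bst2 had 1.85 to 3.69 CPM (median 2.32) against 1.51 to 2.85 CPM (median 1.94), a log2 change of 0.31 (SE 0.172). Dtx3l, the ubiquitin ligase partner of PARP9, had 4.67 to 5.89 CPM (median 5.38) against 5.13 to 6.34 CPM (median 6.08), with −0.14 (SE 0.0874). Ddx58 had 3.21 to 5.71 CPM (median 3.63) against 2.85 to 4.14 CPM (median 3.37), with 0.18 (SE 0.131). All of these overlapped. Without replicate 1 of the Grn+/-:hTDP- group the count above 0 was 17 of 33 and the median 0.01, with Lgals3bp at 0.053, Bst2 at 0.17 and Ddx58 at 0.056. With age as a factor 15 of 33 were above 0 (median −0.01), and Lgals3bp stood at 0.016, Bst2 at 0.11 and Ddx58 at 0.0035. Ages and genotypes were partly confounded here, and replicate 1 of Grn+/-:hTDP- adds no contrast to the fit with age as a factor either.

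In hTDP+ mice the sign was the opposite, with 6 of 33 members higher in Grn+/- than in Grn+/+ mice and a median log2 change of −0.11 against 0.003 for all genes. edgeR called 0 members where 0.00548% of all genes were called. At an unadjusted p under 0.05 it gave 4 members, all lower and all antiviral effectors, where 3.37% of all genes passed. Ifit1 ranged from 0.990 to 1.79 CPM (median 1.32) in Grn+/-:hTDP+ mice and from 1.02 to 3.47 CPM (median 2.27) in Grn+/+:hTDP+ mice. Of the 33 genes it had the largest change here, −0.73 (SE 0.253, edgeR unadjusted p = 0.00844, adjusted p = 0.989), and the groups still overlapped. Ifit2, of the same family, ranged from 7.75 to 11.4 CPM (median 9.02) against 9.66 to 13.9 CPM (median 10.3), with −0.24 (SE 0.1004, edgeR adjusted p = 0.989). Rtp4 had 1.0002 to 1.31 CPM (median 1.11) against 0.975 to 2.19 CPM (median 1.43), with −0.42 (SE 0.202, edgeR adjusted p = 0.989). The Grn+/- mice of this gene lay inside the range of the Grn+/+ mice. Xaf1 had 1.72 to 2.82 CPM (median 1.96) against 2.03 to 5.32 CPM (median 2.33), with −0.44 (SE 0.209, edgeR adjusted p = 0.989). The 13 antiviral effectors were all below 0 (median −0.26), and the 6 class I genes were again split, 3 above and 3 below 0 (median 0.004). Without replicate 2 of the Grn+/+:hTDP+ group 3 members had an unadjusted p under 0.05, with Xaf1 at −0.20 and Ifit2 at −0.15, and without replicate 5 of that group 2 did, with 15 of 33 above 0 and a median of −0.02.

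Markers of other cell types were set beside these 4 comparisons. For the transgene 0 of 6 oligodendrocyte markers were above 0 in Grn+/- mice (median log2 change −0.19) and 6 of 6 in Grn+/+ mice (0.69). For Grn+/- against Grn+/+ 0 of 6 were above 0 in hTDP+ mice (−0.52) and 6 of 6 in hTDP- mice (0.37). These are the signs of the members' own medians in all 4 comparisons, and for the interaction they were 0 of 6 above 0, with a median of −0.88. The 1 T and NK cell marker that passed the filter had those signs too, with log2 changes of −0.14 for the transgene in Grn+/- mice and 0.15 in Grn+/+ mice, −0.13 for Grn+/- against Grn+/+ in hTDP+ mice and 0.16 in hTDP- mice, and −0.29 for the interaction. Blood cell markers were above 0 in 6 of 7 for the transgene in Grn+/- mice (0.16) and 7 of 7 in Grn+/+ mice (0.59), and in 7 of 7 for Grn+/- against Grn+/+ in hTDP+ mice (0.67) and in hTDP- mice (1.22). The microglia median for the transgene was −0.05 in Grn+/- mice and −0.02 in Grn+/+ mice, and for Grn+/- against Grn+/+ it was 0.09 in hTDP+ mice and 0.10 in hTDP- mice. In the same order the medians were 0.05, 0.32, 0.07 and 0.30 for mural and meningeal markers. Those of choroid plexus markers were 0.18, 0.36, −0.57 and −0.10. Endothelial markers had 0.05, 0.07, 0.04 and 0.06, and astrocyte markers 0.0004, 0.04, 0.06 and 0.11. Neuron markers had −0.03, −0.08, −0.03 and −0.03. For the interaction the medians of choroid plexus, mural and meningeal, and blood cell markers were −0.47, −0.20 and −0.36, and those of astrocyte and neuron markers −0.06 and 0.03. edgeR called 0 markers of the 9 cell types in these comparisons, with 0 to 5 at an unadjusted p under 0.05 in a comparison. In single mice the centred log2 mean of the oligodendrocyte markers did not follow the members throughout. It was −0.38 in replicate 1 of Grn+/-:hTDP-, −0.90 in replicate 3 of Grn+/+:hTDP- and 0.95 in replicate 5 of Grn+/+:hTDP+ mice. Replicate 2 of Grn+/-:hTDP- had the highest value, 1.37, with a mean over the members of −0.05. The part of all these cell types in the members' values was not tested.

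**Figure D3:**
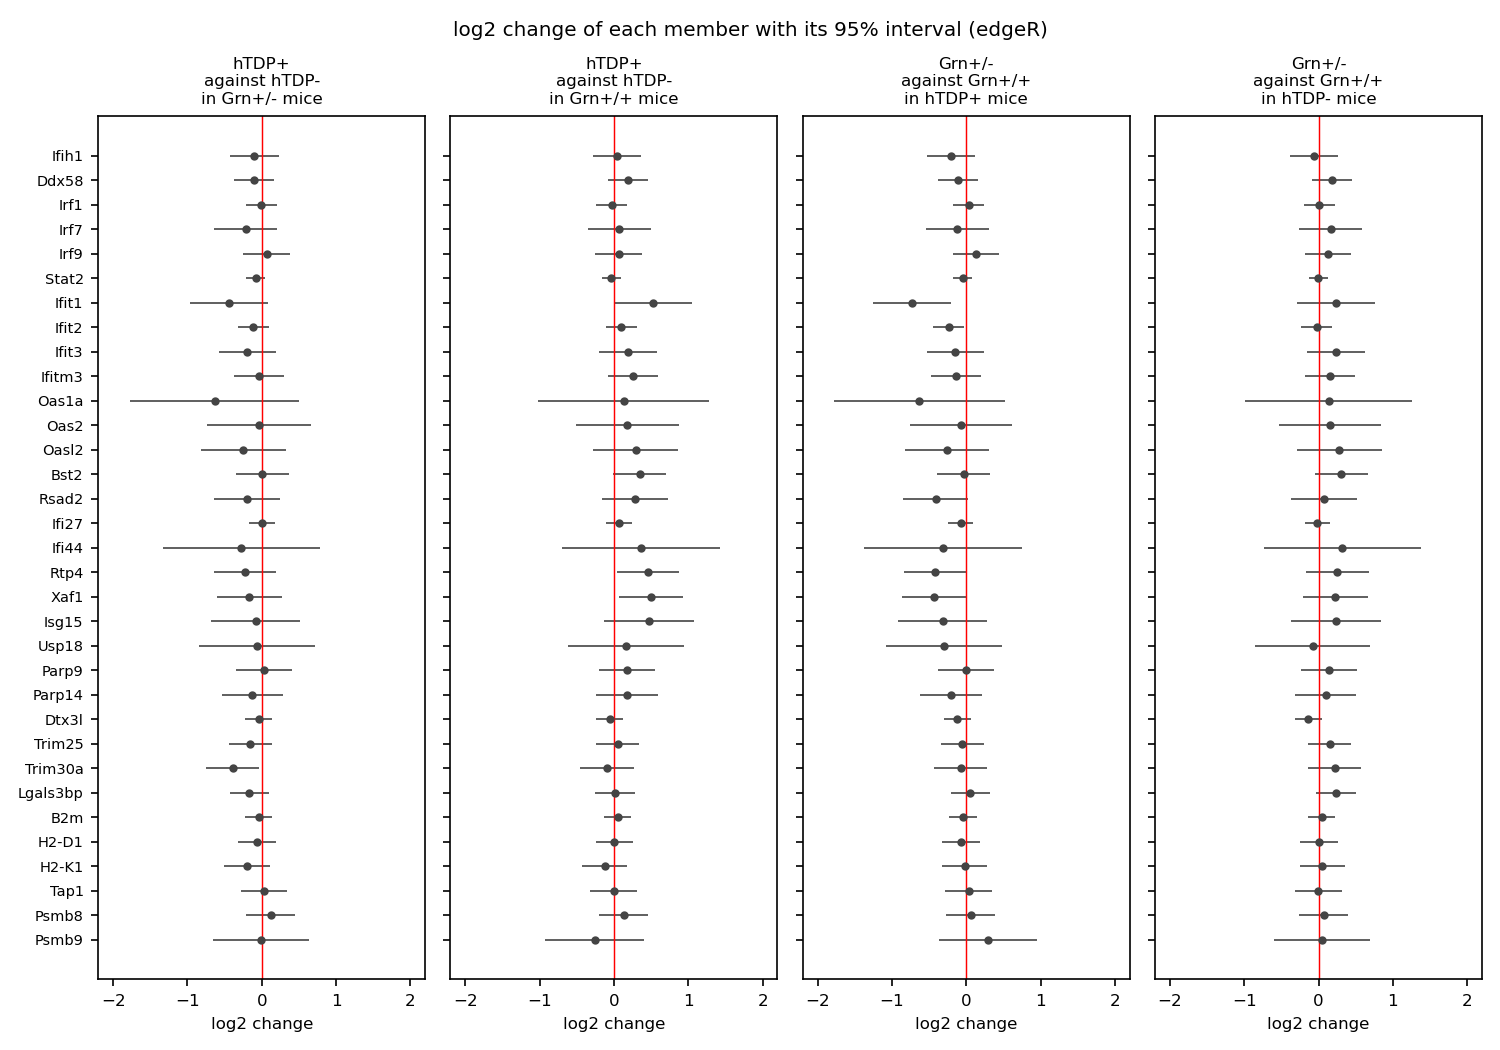
log2 change of each of the 33 genes with its 95% interval from edgeR, in the 2 transgene comparisons and the 2 Grn comparisons; the red line marks no change. Points lean right for the transgene in Grn+/+ mice and for Grn+/- in hTDP- mice, and left in the other pair, and most intervals cross 0.

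Mice with both changes and mice with neither were compared last among the genotypes. Comparing Grn+/-:hTDP+ with Grn+/+:hTDP- mice, 18 of 33 members were above 0 and the median log2 change was 0.003, against 0.01 for all genes. edgeR called 0 members where 0.0768% of all genes were called, and gave 0 members at an unadjusted p under 0.05 where 9.4% of all genes passed. Dtx3l ranged from 4.21 to 6.07 CPM (median 5.30) in Grn+/-:hTDP+ mice and from 5.13 to 6.34 CPM (median 6.08) in Grn+/+:hTDP- mice (−0.18, 95% interval −0.36 to 0.002, edgeR adjusted p = 0.534). Bst2 had 2.08 to 3.18 CPM (median 2.44) against 1.51 to 2.85 CPM (median 1.94), with 0.31 (95% interval −0.04 to 0.67, edgeR adjusted p = 0.595). Ifit2 had a log2 change of −0.14 (SE 0.101) and Stat2 of −0.08 (SE 0.0615). In these 4 genes the groups overlapped. Without replicate 2 of Grn+/+:hTDP+ 1 member had an unadjusted p under 0.05. With age as a factor 10 of 33 members were above 0. In that fit Dtx3l stood at −0.25 (edgeR unadjusted p = 0.0148, adjusted p = 0.691) and Stat2 at −0.13 (edgeR unadjusted p = 0.0431, adjusted p = 0.709). All 7 blood cell markers were above 0 (median log2 change 1.38, 6 at an unadjusted p under 0.05), as were all 10 mural and meningeal markers (0.39, 2 under 0.05), and their part was not tested.

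The interaction, the transgene effect in Grn+/- mice minus that in Grn+/+ mice, is the question named in the series title. Of 33 members 28 were below 0 and 5 above, with a median of −0.22 against 0.003 for all genes, which restates the opposite leanings of the 2 transgene comparisons. edgeR called 0 members where 0% of all genes were called, and gave 3 members, all lower, at an unadjusted p under 0.05 where 2.38% of all genes passed. Ifit1 had the smallest p, with an interaction of −0.97 on the log2 scale (95% interval −1.71 to −0.23, edgeR unadjusted p = 0.0125, adjusted p = 1). Rtp4 had −0.68 (95% interval −1.27 to −0.08) and Xaf1 −0.66 (95% interval −1.28 to −0.05), each with an edgeR adjusted p = 1. Rsad2, which encodes the antiviral enzyme viperin, had −0.49 (95% interval −1.11 to 0.14). Its levels ran from 0.616 to 1.03 CPM (median 0.847) in Grn+/-:hTDP+, 0.615 to 1.44 (median 0.974) in Grn+/-:hTDP-, 0.769 to 1.38 (median 1.08) in Grn+/+:hTDP+ and 0.564 to 1.31 CPM (median 0.942) in Grn+/+:hTDP- mice, all overlapping. The 13 effectors were all below 0 (median −0.49), and the 6 class I genes had a median of −0.04. Leaving out replicate 5 of the Grn+/+:hTDP+ group took the count at an unadjusted p under 0.05 to 1 and the median to −0.14. Without replicate 2 of that group Xaf1 stood at −0.44 and 2 members were under 0.05, and with age as a factor Ifit1 stood at −0.50.

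Averaged over both backgrounds the members were spread to both sides of 0. For the average transgene effect 19 of 33 members were above 0 (median 0.02, all genes 0.003). edgeR called 0 members where 0.11% of all genes were called, and gave 0 members at an unadjusted p under 0.05 where 7.86% of all genes passed. Trim30a, next to the threshold, ranged from 0.854 to 1.56 CPM (median 1.15) in the 12 hTDP+ mice and from 1.01 to 2.14 CPM (median 1.33) in the 12 hTDP- mice (−0.24, SE 0.123, edgeR adjusted p = 0.652). H2-K1 stood at −0.16 (SE 0.105), Bst2 at 0.18 (SE 0.121) and Stat2 at −0.06 (SE 0.0435). The interval of Stat2 was −0.15 to 0.03. Without replicate 1 of Grn+/-:hTDP- 25 of 33 members were above 0, and without replicate 5 of Grn+/+:hTDP+ 10 were. All 6 oligodendrocyte markers (median log2 change 0.25), all 7 blood cell markers (0.38) and all 10 mural and meningeal markers (0.18, 2 at an unadjusted p under 0.05) were above 0, and their part was not tested. With age as a factor Trim30a stood at −0.12 and Stat2 at −0.13, the latter with an edgeR unadjusted p = 0.0389 and not called.

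For the average Grn effect 18 of 33 members were above 0 (median 0.008, all genes 0.005). edgeR called 0 members where 0.0219% of all genes were called, and gave 1 member, lower, at an unadjusted p under 0.05 where 4.93% of all genes passed. It was Dtx3l, with 4.21 to 6.07 CPM (median 5.31) in the 12 Grn+/- mice and 4.95 to 6.34 CPM (median 5.91) in the 12 Grn+/+ mice (−0.13, SE 0.0618, edgeR unadjusted p = 0.0481, adjusted p = 0.926). The groups overlapped over most of their range. Without replicate 2 of Grn+/+:hTDP+ the count under 0.05 was 0. Without replicate 1 of Grn+/-:hTDP- 7 of 33 members were above 0, and with age as a factor 9 were. All 7 blood cell markers (median log2 change 0.97, 5 at an unadjusted p under 0.05) and all 10 microglia markers (0.10, 2 under 0.05) were above 0, and their part was not tested. Ifit2 stood at −0.13 (SE 0.0710), Lgals3bp at 0.15 (SE 0.0906) and Ifit1 at −0.25 (SE 0.179). With age as a factor Lgals3bp was 0.034 and Ifit1 −0.51 (edgeR unadjusted p = 0.0458, not called), and Dtx3l was −0.12 (edgeR unadjusted p = 0.143).

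Between the sexes, most members had a lower value in males. Only 7 of 33 were above 0 for males against females, with a median log2 difference of −0.14 against 0.001 for all genes. edgeR called 0 members where 0.0713% of all genes were called, and gave 1 member, lower, at an unadjusted p under 0.05 where 5.99% of all genes passed. B2m ranged from 40.9 to 57.2 CPM (median 50.6) in 12 males and from 49.7 to 74.1 CPM (median 56.6) in 12 females. The ranges overlapped, and the log2 difference was −0.20 (SE 0.0635, edgeR unadjusted p = 0.00510, adjusted p = 0.687). H2-D1 had 26.4 to 41.3 CPM (median 36.6) in males and 29.1 to 50.4 CPM (median 37.8) in females (−0.16, SE 0.0876, edgeR adjusted p = 0.848). Irf7, the factor that amplifies type I interferon production, had 0.908 to 2.13 CPM (median 1.46) in males and 1.14 to 2.69 CPM (median 1.63) in females (−0.29, SE 0.146, edgeR adjusted p = 0.837). Rsad2 had 0.564 to 1.38 CPM (median 0.847) in males and 0.691 to 1.44 CPM (median 1.03) in females (−0.30, SE 0.152, edgeR adjusted p = 0.839). Both genes overlapped widely. The highest and lowest mice named above include both sexes. Leaving out 1 mouse at a time gave 1 to 6 members at an unadjusted p under 0.05, with 6 reached without replicate 5 of Grn+/+:hTDP+, a male, and 5 without replicate 2 of that group, and 5 to 8 of 33 above 0. None of the 6 oligodendrocyte markers was above 0 for males against females (median log2 difference −0.30). Of 4 choroid plexus markers 2 were above 0 (median −0.37), with 2 lower at an unadjusted p under 0.05. The part of these cells was not tested.

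Further genes of the pathway were taken from a list of 120, of which 100 passed the filter on low counts. Across the 9 comparisons of genotypes and sexes edgeR called 0 of the 100, with 1 to 7 at an unadjusted p under 0.05 in a comparison. limma voom also called 0, and DESeq2 called 1, Adar, named after its value was seen, in Grn+/-:hTDP+ against Grn+/+:hTDP- mice (log2 change −0.11, DESeq2 adjusted p = 0.0438). None of the 10 interferon genes looked at passed the filter, with Ifnb1 at 0 reads in every library and Ifng at no more than 3 reads in any. In the average transgene effect 4 of 100 had an unadjusted p under 0.05, 1 higher and 3 lower, and in the average Grn effect 3 did, 2 higher and 1 lower. The lower genes with the transgene were Cgas, the cytosolic DNA sensor (log2 change −0.30, edgeR adjusted p = 0.570), Adar, the RNA-editing enzyme whose loss sets off MDA5 (−0.06, 0.588), and Znfx1, an RNA helicase sensor (−0.11, 0.614). With loss of a Grn copy the proteasome activator gene Psme2 stood at 0.12 (edgeR adjusted p = 0.926) and Ube2l6, the ISG15-conjugating enzyme, at 0.22 (0.926).

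Cxcl10, a chemokine that draws T cells, had the smallest p of the further genes for the transgene in Grn+/+ mice and for the interaction, at very few reads. It ranged from 0.016 to 0.229 CPM (median 0.149) in Grn+/-:hTDP+, 0.026 to 0.801 (median 0.177) in Grn+/-:hTDP-, 0.014 to 0.706 (median 0.115) in Grn+/+:hTDP+ and 0.014 to 0.084 CPM (median 0.027) in Grn+/+:hTDP- mice. That is 1 to 18, 2 to 53, 1 to 69 and 1 to 6 reads. The 4 groups overlapped. The highest mouse was again replicate 1 of Grn+/-:hTDP-, and the next was replicate 2 of Grn+/+:hTDP+, the library with few genes above 0. The log2 change of Cxcl10 was 2.81 for the transgene in Grn+/+ mice (SE 0.819, edgeR adjusted p = 0.591) and its interaction −3.57 (edgeR adjusted p = 1). Without replicate 2 of Grn+/+:hTDP+ these were 2.24 (edgeR adjusted p = 0.939) and −3.04 (edgeR adjusted p = 1). Over the 100 further genes the log2 changes were above 0 in 36 for the transgene in Grn+/- mice (median −0.04) and in 56 in Grn+/+ mice (0.01). For Grn+/- against Grn+/+ they were above 0 in 46 in hTDP+ mice (−0.007) and in 67 in hTDP- mice (0.05), and for the interaction in 35 (−0.05).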

How the data were processed

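Frontal cortex RNA of 24 mice was measured in 4 genotypes of 6. Per the file headers, the authors deposited for each library a transcript table with TPM values, effective lengths and expected counts, that is, read numbers as estimated and often fractional. STAR, SAMtools, Salmon and DESeq2 are named in the submitters' processing notes, without roles. The authors' genome build is not given in the sources used here. Transcripts were looked up in GENCODE M21 (GRCm38), which placed 138032 of 149444 (92.4%) in 52352 genes. Those left out held 1.17% to 1.66% of a library's reads.

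The deposited expected counts were added up by gene, then rounded to whole numbers. All 18239 genes that passed the filter were tested with edgeR 4.0.16 (R 4.3.3), using the quasi-likelihood test, two-sided, TMM scaling, all 24 libraries, and genotype and sex as model terms. Benjamini-Hochberg adjustment ran over all genes, and a call needed an adjusted p under 0.05. CPM were computed from deposited expected counts with TMM library sizes, and log2 values from those CPM. DESeq2 1.42.0 and limma 3.58.1 (voom) were alternatives. The fit was tested on simulated data.

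Members and lists were chosen with earlier results of these data known, although the rule for the 33 members used no measured value. Genes named in each comparison are the 4 members of smallest p, the 2 members of highest TPM in each role group, and up to 3 further pathway genes of smallest p; the others are given by counts. H2-K1 and the least abundant members in the levels, and the members of least and most spread, were named after their values were seen. Markers of 9 cell types were looked at beside the members, with counts and medians of their log2 changes. A planned test of how members vary together between mice is not reported here.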

Additional observations from a re-analysis of the deposited data

Results flagged for a closer look

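Each of the 33 genes was looked at in the 4 genotypes for a mouse set far from the other 5, which makes 132 groups. Such a mouse was found in 19 of them, over 16 genes, where chance flags about 1 in 20 groups of normally distributed values. The rule was applied to CPM on a linear scale, where values skewed to the high side can raise that rate. Genes of 1 mouse are not independent. In all 19 the mouse set apart was the highest of its group, and its level in CPM is given here.

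Replicate 1 of the Grn+/-:hTDP- group stood apart in 8 genes: the RNA sensor Ddx58 at 5.71, Irf1 at 6.55, Ifit3 at 10.8, Rtp4 at 2.17, Trim25, the ubiquitin ligase that activates RIG-I, at 8.05, Lgals3bp at 20.9, B2m at 74.1 and Tap1 at 3.90 CPM. Its microglia markers, the highest of the 24 libraries, are given with the results, and their part was not tested. Replicate 3 of the Grn+/+:hTDP- group stood apart in 4 genes, all of class I presentation: H2-K1 at 39.7, Tap1 at 4.39 and the immunoproteasome subunits Psmb8 at 2.98 and Psmb9 at 2.14 CPM. Psmb8, Psmb9, Tap1 and H2-K1 lie within the same region of chromosome 17. In the same mouse B2m, on chromosome 2, was at 70.2 CPM, the second highest of the 24 libraries. Among the further pathway genes, Gbp2, Gbp3 and Gbp4 were highest of the 24 there, at 4.28, 5.59 and 6.06 CPM. These were named after their values were seen, and the part of location was not tested.

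Replicate 1 of the Grn+/-:hTDP+ group stood apart in Irf9 at 10.0 CPM and Stat2 at 23.1 CPM, 2 parts of the ISRE-binding complex. Its targets were not raised with them. In that mouse the mean centred log2 level was −0.12 over all members, −0.23 over the antiviral effectors and −0.37 over the RNA sensors. It was 0.22 over the transcription factors, which include both genes. Irf9 also shares 123 bases with Rnf31 on the same strand. Replicate 3 of the Grn+/-:hTDP+ group stood apart in Ifit3 at 7.11 and Xaf1 at 2.82 CPM. Replicate 2 of the Grn+/+:hTDP+ group, the library with few genes above 0, stood apart in Ifit2 at 13.9 and Xaf1 at 5.32 CPM. Replicate 5 of that group stood apart in Usp18, the protease that removes ISG15, at 1.55 CPM.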

How the results depend on the processing

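For the 9 comparisons of genotypes and sexes the count of members called was 0 under every alternative run, which were other scalings, filters, tools, length-scaled counts, sex and age terms, fits on the genotypes compared alone, and leaving out each mouse. With length-scaled TPM counts the average transgene effect on Stat2 was 0.019. For the transgene in Grn+/- mice, Ifit1 was 0.021 and Lgals3bp 0.072 with age as a factor, where replicate 1 of Grn+/-:hTDP- adds no contrast. Leaving out each mouse in turn, that effect ran from −0.22 to 0.011 for Lgals3bp, positive without replicate 1 of Grn+/-:hTDP-. The cause was not tested.

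Leaving out each mouse in turn moved the members above 0 between 18 and 29 for the transgene in Grn+/+ mice, 3 and 14 in Grn+/- mice, 17 and 29 for Grn+/- in hTDP- mice, 4 and 15 in hTDP+ mice, 10 and 22 for both changes against neither, 1 and 9 for the interaction, 10 and 25 for the average transgene effect, 7 and 22 for the average Grn effect, and 5 and 8 for sex. With age as a factor 15 of 33 were above 0 for Grn+/- in hTDP- mice, where ages and genotypes are partly confounded. They are also partly confounded for the transgene in Grn+/- mice, the interaction and the average effects. No paired analysis was possible because the labels give no replicate number shared between genotypes. For the transgene in Grn+/+ mice the 95% interval of Oas1a, with 0 to 61 reads a library and the largest spread between mice of the members, ran from −1.02 to 1.28 on the log2 scale. Values of Cxcl10 under the alternatives were added after seeing the data, and its adjusted p ran from 0.314 to 0.939 for the transgene in Grn+/+ mice. Over all genes, edgeR called 20 for the average transgene effect, DESeq2 61, limma voom 20 and age as a factor 2. For both changes against neither the counts were 14, 92, 13 and 3.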
